A study of Mus musculus with 6 samples.

Results

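Regulatory CD4 T cells of the aged mouse lung were chosen by their UMIs (unique molecular identifiers, each counting 1 captured RNA molecule). The rule took barcodes that passed a minimum of 500 genes and 1000 UMIs, had at most 15% mitochondrial UMIs, held at least 1 UMI each of Cd3e, Cd4 and Foxp3, and had none of Cd8a, Trdc, Il17a, Il17f or Cd79a. There were 257 such cells among 88616 retained barcodes. The p16-DTR-labelled libraries gave 37, 38 and 79 cells, and the control-labelled libraries gave 27, 27 and 49. Since the cells were selected on Foxp3 and Cd4 UMIs, their presence is no finding. Comparisons with the 1725 conventional CD4 T cells, which met the same rule with 0 Foxp3 UMIs, are given as descriptions with no test.

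Regulatory T cells are CD4 T cells that restrain other immune cells, and the transcription factor Foxp3 sets their programme. They hold high levels of the IL-2 receptor alpha chain (Il2ra) and of the inhibitory receptor Ctla4, with which they take up IL-2 and costimulatory ligands that other T cells need. Those in barrier tissues such as the lung often carry the IL-33 receptor (Il1rl1), the integrin alpha E chain (Itgae) and the growth factor amphiregulin (Areg), which acts on epithelial repair.

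The lungs came from male C57BL/6 mice of 21 months. The p16-DTR group carried p16-CreERT2, a tamoxifen-dependent recombinase driven by the p16 (Cdkn2a) promoter, together with R26-LSL-DTR, a diphtheria toxin receptor that is expressed only after recombination, and the control group carried p16-CreERT2 alone. Tamoxifen was given to both for 5 days and, after 2 weeks, diphtheria toxin for another 5 days, with the lungs taken 2 weeks later, so that the controls had the recombinase and both agents but no receptor. Each of the 3 libraries per group mixed 20000 sorted CD45-negative with 9000 sorted CD45-positive cells. The labels do not say whether each library came from a separate mouse, so p-values measure only the spread between these libraries, which may be technical.

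The libraries held 254200305 to 344421685 UMIs and 12667 to 16426 retained barcodes. Regulatory cells had a median of 17288 UMIs and 4187 genes per cell, with library medians of 16686 to 18012 UMIs, and conventional cells had a median of 15023 UMIs. Summed over the regulatory cells, the p16-DTR-labelled libraries held 916949, 1045226 and 1889490 UMIs and the controls 590408, 593118 and 1076736. Of 94392 barcodes, 1055 sequences occurred in more than 1 library. The barcodes of 8 regulatory cells did so, and no barcode was a regulatory cell in 2 libraries.

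The label was checked against genes that the rule did not use. Among the 36 cells with a single Foxp3 UMI, just inside the threshold, 94.4% had a UMI of Ikzf2 (Helios, a transcription factor of regulatory cells), compared with 92.6% of the 27 cells with 2 Foxp3 UMIs, 91.2% of the 194 cells with 3 or more and 41.3% of the conventional cells just outside it. Itgae was detected in 44.4%, 37.0% and 54.6% of these classes of regulatory cells and in 4.75% of conventional cells. The cells with a single Foxp3 UMI were therefore close to those with more Foxp3 on Ikzf2. On Itgae they lay below the cells with 3 or more and above the conventional cells. Il2ra, also not used by the rule, was detected in 47.2%, 40.7% and 64.9% of the 3 classes and in 17.5% of conventional cells. The median was 5 Foxp3 UMIs per cell, with library medians of 3 to 6 and a maximum of 29. B cells, which should lack Foxp3, had a Foxp3 UMI in 15 of 9688 cells, or 0.155%, at a median of 17684 UMIs. Conventional cells with both Il2ra and Ctla4 numbered 230, and Ikzf2 was detected in 30.9% of them.

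Cells carrying transcripts of other cell types were present among the regulatory cells, in unequal amounts. A total of 28 were predicted doublets, with 5, 3 and 11 in the p16-DTR-labelled libraries and 1, 4 and 4 in the controls. A total of 31 had more than 0.5% of their UMIs from marker lists of B cells, macrophages and monocytes, neutrophils, endothelial, epithelial or mesenchymal cells. Leaving out both kinds, called doublet-like cells below, kept 220 of the 257 cells, with 31, 32 and 65 in the p16-DTR-labelled libraries and 25, 23 and 44 in the controls. Results that follow are for all members, and values for the 220 are given where stated.

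The share of regulatory cells among CD4 T cells did not separate the groups. Of all CD4 T cells they were 13.1% (95% Wilson interval 9.64 to 17.5, covering counting error only), 9.41% (6.93 to 12.6) and 15.3% (12.5 to 18.7) in the p16-DTR-labelled libraries. In the controls they were 9.57% (6.66 to 13.6), 7.78% (5.4 to 11.1) and 10.4% (7.99 to 13.5). The second p16-DTR library lay within the control range and the third was the highest of the 6. The means were 12.6% ± 2.98 and 9.27% ± 1.36 (SD, n = 3 libraries each), and the difference was not beyond the spread between libraries (exact two-sided permutation test, p = 0.3, where 0.1 is the smallest p that 3 against 3 libraries allow). After each cell was thinned to 5000 UMIs, the shares were 9.57% ± 2.83 and 5.94% ± 1.17 (n = 3 each), the groups no longer overlapped, and the exact permutation p was 0.1.

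The denominator differed between the groups in cells with Il17a or Il17f UMIs, the cytokines of type 17 T cells. Such CD4 T cells numbered 20, 3 and 13 in the p16-DTR-labelled libraries and 75, 109 and 99 in the controls. With these cells left out of the denominator, regulatory cells were 13.1% ± 3.23 of CD4 T cells in the p16-DTR group and 12.5% ± 1.04 in the controls (n = 3 each, exact permutation p = 0.8). Of cells with a Ptprc UMI (Ptprc encodes CD45), regulatory cells were 0.679%, 0.629% and 1.17% in the p16-DTR-labelled libraries and 0.535%, 0.653% and 0.891% in the controls, with overlapping groups (exact permutation p = 0.6). Shares of all barcodes are not given, because the sort fixed the ratio of CD45-positive to CD45-negative cells. A further 10 cells with both Foxp3 and Il17a or Il17f UMIs were left out by the rule. They numbered 1, 1 and 1 in the p16-DTR-labelled libraries and 3, 1 and 3 in the controls.

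**Figure D1:**
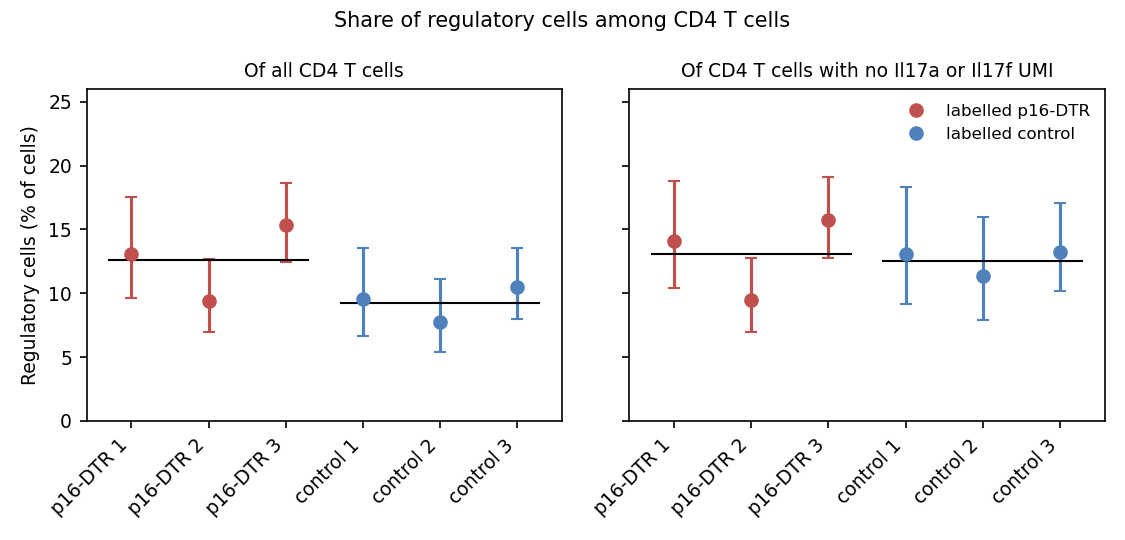
Regulatory cells as a percentage of CD4 T cells in each library (points, with 95% Wilson intervals and group means as lines), over all CD4 T cells on the left and over those with no Il17a or Il17f UMI on the right. The group means are 12.6% and 9.27% on the left and 13.1% and 12.5% on the right.

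The regulatory cells had a transcriptome set apart from conventional CD4 T cells in the same direction in each library. Values are counts per 1000000 (CPM) of the UMIs summed over the cells of a library, and ratios are log2 of CPM plus a pseudocount of 5, taken within a library. Of 7272 genes at 20 CPM or more in either population, 983 were higher in regulatory cells in 6 of 6 libraries, 113 of them by a median of 2-fold or more, and 927 were lower in 6 of 6, 141 of them by 2-fold or more. Without doublet-like cells, an alternative added after seeing the data, the 2-fold counts were 173 higher and 150 lower, so that the direction with more genes turned. These counts describe a split that Foxp3 made and carry no test.

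Of the 19 genes of a regulatory identity list, 16 were not used by the rule and reached 5 CPM, and 13 of these were higher in regulatory cells in 6 of 6 libraries. Among the transcription factors, Ikzf2 was at 1904, 2371 and 1965 CPM in regulatory cells of the p16-DTR-labelled libraries and at 1623, 2278 and 2214 CPM in the controls, compared with 188 to 292 CPM in conventional cells. Ikzf4 (Eos), a partner of Foxp3 in repression, was at 56.7 ± 10.6 CPM and 8.07 ± 3.33 CPM (SD, n = 6 libraries, here and below). Ikzf2 thus had no overlap between the populations, with a median log2 ratio of 3.27.

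The receptors of the list followed. Ctla4 was at 2276 ± 491 CPM in regulatory and 706 ± 57.0 CPM in conventional cells, and Il2ra at 150 ± 51.9 and 43.4 ± 16.2 CPM. The costimulatory receptors of the tumour necrosis factor receptor family were higher in 6 of 6 libraries, with median log2 ratios of 2.85 for Tnfrsf9 (4-1BB), 1.54 for Tnfrsf4 (OX40), 1.30 for Tnfrsf18 (GITR) and 0.61 for Tnfrsf1b. Lrrc32 (GARP), which holds latent TGF-beta at the cell surface, was at 66.0 ± 18.4 and 6.71 ± 2.25 CPM. Exceptions on the list were Nrp1, higher in 5 of 6 libraries, Tigit, higher in 5 of 6, and Socs2, higher in 1 of 6. Cd4 itself was lower in regulatory cells in 6 of 6 libraries, at 195 ± 12.9 against 306 ± 10.9 CPM, although both populations were required to hold at least 1 Cd4 UMI.

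With the genes of the rule left out, Itgae and Il1rl1 had the highest median ratios at this pseudocount. Itgae is on the identity list and the homing and adhesion list, and Il1rl1 on the list of tissue and effector genes. Without doublet-like cells Lrrc32, at 3.46, lay between Il1rl1 (3.56) and Itgae (3.43), and at a pseudocount of 1 Ky was the highest of the same 15 genes (5.11, against 4.01 for Itgae and 3.89 for Il1rl1). Itgae, which binds E-cadherin on epithelium as part of an integrin, was at 131, 91.8 and 150 CPM in regulatory cells of the p16-DTR-labelled libraries and at 169, 126 and 169 CPM in the controls, against 3.71 to 21.8 CPM in conventional cells. Il1rl1 was at 93.8, 181 and 174 CPM and at 164, 209 and 215 CPM, against 5.74 to 42.3 CPM. Areg was at 449, 535 and 415 CPM and at 659, 229 and 703 CPM, against 44.0 to 99.8 CPM. Each of these genes was higher in regulatory cells in every library, with median log2 ratios of 3.50 for Itgae, 3.49 for Il1rl1 and 2.75 for Areg. Klrg1, an inhibitory receptor of effector lymphocytes, had a median log2 ratio of 2.94, and Itgav, the integrin alpha V chain that can activate TGF-beta, one of 2.18. Over the list of 19 tissue and effector genes, 9 were higher in 6 of 6 libraries and 1 lower, with a median log2 ratio of 0.44. Over the 11025 genes at 5 CPM or more, 1145 were higher and 1300 lower in 6 of 6 libraries, with a median of -0.03, which is the background for the list counts against conventional cells here.

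No list was fixed for some of the 15 genes with the highest ratios, which are named here after their values were seen. They included Ky, a protein of muscle cytoskeleton, at 43.1 ± 17 CPM against 0.182 ± 0.344, Neb (nebulin, a giant thin-filament protein of muscle) at 96.1 ± 33.9 against 12.3 ± 4.78, Dscam, a neuronal adhesion molecule, at 76.6 ± 32.8 against 6.55 ± 5.51, Ankrd55 at 42.8 ± 24.1 against 4.81 ± 1.02, and Atp6v0d2, a subunit of the vacuolar proton pump, at 43.7 ± 32.7 against 3.32 ± 2.84 CPM. All were higher in 6 of 6 libraries, also with doublet-like cells left out. Ighm, the immunoglobulin mu heavy chain, was at 522, 339 and 448 CPM in the p16-DTR-labelled libraries and at 371, 481 and 362 CPM in the controls, compared with 69.5 to 112 CPM in conventional cells and 48.3 to 79.8 CPM in CD8 T cells. It was also higher, at 506 against 95.1 CPM, when doublet-like cells were left out. B cells had 4166 to 7961 CPM of Ighm, and the part of B cell transcripts in the value of regulatory cells was not tested beyond this.

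Among the 15 genes with the lowest ratios were several known from cytotoxic and type 1 effector T cells, a group for which no list was fixed. Gzmk (granzyme K) was at 0 CPM in 5 of the 6 libraries and at 11.6 CPM in p16-DTR 3, against 48.2 to 217 CPM in conventional cells. Ccl5, a chemokine of effector T cells, was at 30.6 to 133 CPM in the p16-DTR-labelled libraries and 28.8 to 54.0 CPM in the controls, against 398 to 2762 CPM. Ifng (interferon gamma) was at 2.96 ± 2.49 against 57.0 ± 20.5 CPM, Eomes, a T-box factor of cytotoxic cells, at 0.970 ± 2.38 against 82.1 ± 45.3 CPM, and Fasl, the death ligand, at 6.21 ± 2.98 against 108 ± 41.7 CPM. These genes were lower in regulatory cells in 6 of 6 libraries. So were Nkg7 (median log2 ratio -3.35), the IL-12 receptor chain Il12rb2 (-3.10), the T cell receptor signalling adaptor Themis (-2.99), the survival factor Bcl2 (-2.60), Kcnc2 (-2.91), Mctp2 (-2.80), Atp8a2 (-2.62) and Tmem163 (-2.59). Esm1 (-3.31) lies within the span of Gzmk on the opposite strand in the annotation, so the pair is reported as uncertain. Sostdc1 had a median log2 ratio of -2.92 but ranged from -3.87 to -0.68, with 75.9 CPM in regulatory cells of control 2 and at most 7.94 CPM in the other libraries. Cxcr3, a chemokine receptor of type 1 cells, was at 113 ± 19.4 against 115 ± 32.6 CPM and higher in 2 of 6 libraries.

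**Figure D2:**
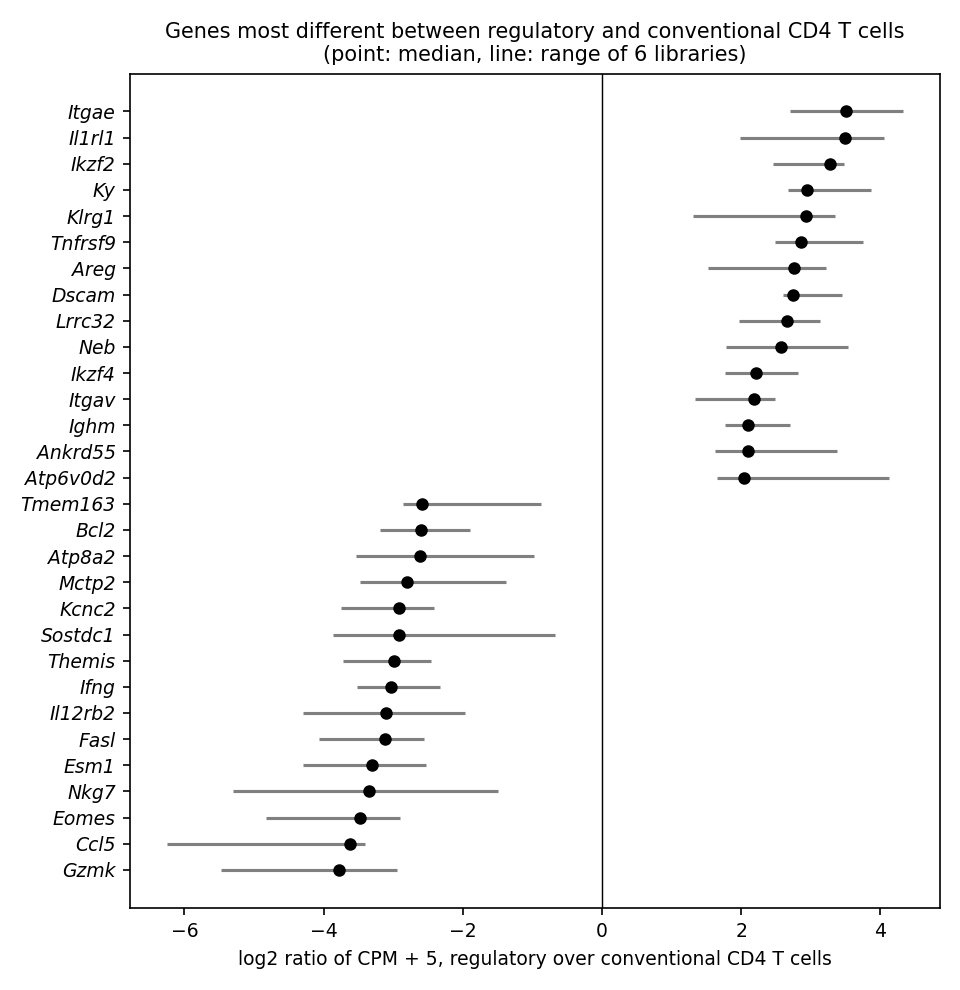
Log2 ratio of CPM plus 5 in regulatory over conventional CD4 T cells for the 15 genes with the highest and the 15 with the lowest median among genes of the same sign in 6 of 6 libraries (points: median, lines: lowest to highest library). The points run from -3.78 for Gzmk to 3.50 for Itgae.

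The resting or central list was mostly lower in regulatory than in conventional cells. Of its 15 genes, 11 were lower in 6 of 6 libraries and none was higher in 6 of 6. Tcf7, a transcription factor of naive and memory cells, had a median log2 ratio of -1.68, Satb1 of -1.37, Bach2 of -1.21, Lef1 of -0.74 and the IL-7 receptor Il7r of -0.52.

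Suppressive molecules varied among themselves. Of 18 genes with enough counts, 6 were higher in 6 of 6 libraries and 1 was lower. Ebi3, a subunit of the cytokine IL-35, was at 20.3 ± 4.31 against 6.25 ± 1.79 CPM, Itgb8, which activates TGF-beta with alpha V, at 76.5 ± 32.9 against 29.1 ± 13.2 CPM, and Lgals1 (galectin-1) at 894 ± 116 against 476 ± 68.3 CPM. Il10 did not share this direction. It was at 24.3 ± 20.3 against 51.4 ± 24.2 CPM and lower in 5 of 6 libraries. The ectonucleotidase Entpd1 (CD39) was higher in 3 of 6 libraries and Nt5e (CD73) in 5 of 6.

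Of 25 homing and adhesion genes, 9 were higher and 4 lower in 6 of 6 libraries, with a median log2 ratio of 0.09. Ccr6, Ccr8, Ccr4 and Ccr2 were higher in regulatory cells in 6 of 6 libraries, with median log2 ratios of 1.38, 1.22, 0.74 and 0.66, while Cxcr6, a receptor of tissue effector T cells, was lower in 6 of 6 (-2.29). Of the 15 proliferation genes, 7 were higher in 6 of 6 libraries and none was lower in 6 of 6. Mki67 was at 293 ± 56.2 against 124 ± 27.3 CPM and Top2a at 263 ± 61.9 against 123 ± 24.1 CPM. Of 11 exhaustion and ageing genes, 1 was higher in 6 of 6 libraries and 4 were lower in 6 of 6, with a median log2 ratio of -0.05. The higher one was Tox, a factor of exhausted T cells, at 1549 ± 182 against 784 ± 120 CPM, while the inhibitory receptor Pdcd1 (PD-1) was at 54.8 ± 17 against 61.5 ± 15.6 CPM and lower in 4 of 6.

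Shares of cells with a UMI of a gene were compared at matched depth. After thinning to 5000 UMIs, which 255 of the 257 cells reached, Ikzf2 was detected in 88.4% ± 9.62 of regulatory and 30.8% ± 3.64 of conventional cells (SD, n = 6). Areg was detected in 61.4% ± 8.03 against 14.8% ± 2.59, Il1rl1 in 27.3% ± 4.32 against 3.44% ± 2.69 and Klrg1 in 12.5% ± 2.00 against 2.44% ± 1.46. Each of these shares was higher in regulatory cells in 6 of 6 libraries. Mki67 was detected in 22.2% ± 7.01 against 9.21% ± 1.40, also higher in 6 of 6. Ccr7, the lymph node homing receptor, was detected in 14.5% ± 2.74 against 28.5% ± 7.69 and was lower in 6 of 6. Tbx21 (T-bet) was detected in 5.71% ± 4.35 against 19.9% ± 7.32. Without thinning the means were 90.9% and 42.2% for Ikzf2, 72.9% and 21.1% for Areg, 34.7% and 5.23% for Il1rl1, and 27.4% and 39.9% for Ccr7.

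**Figure D3:**
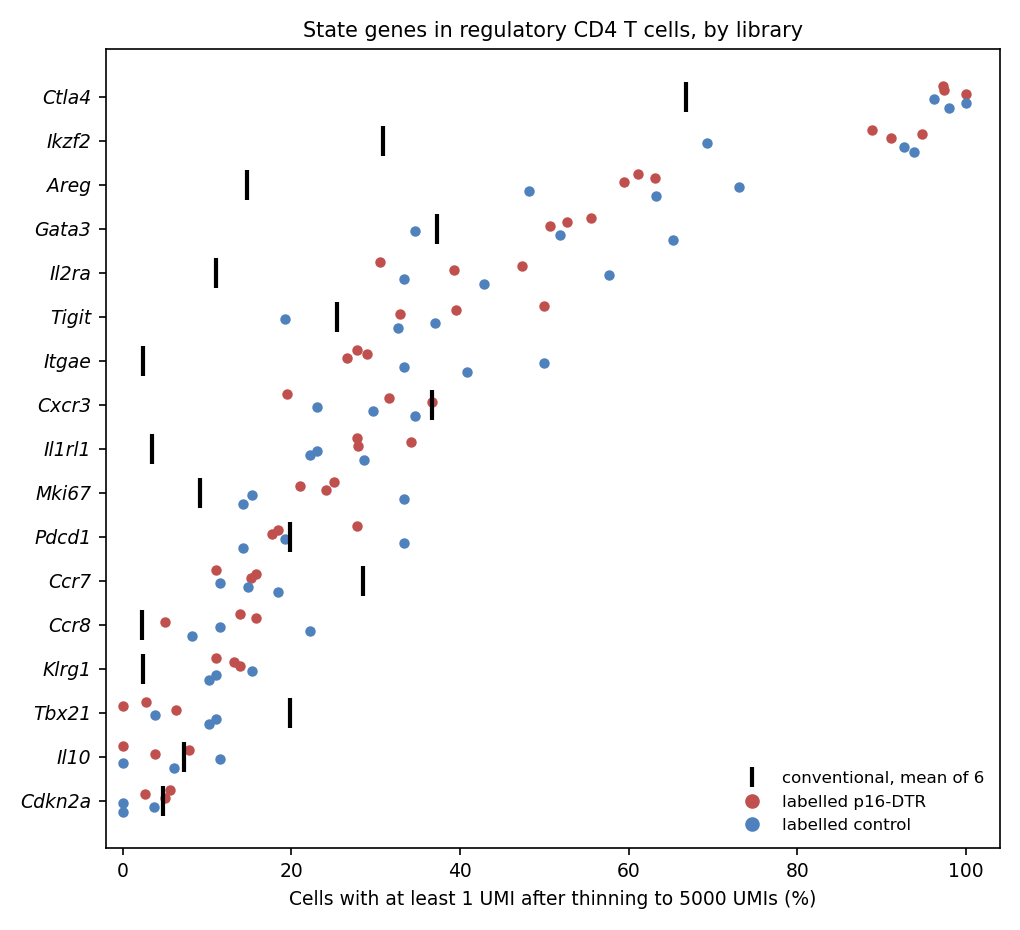
Percentage of regulatory CD4 T cells with at least 1 UMI of each of 17 state genes after thinning every cell to 5000 UMIs, by library, with the mean of 6 libraries of conventional CD4 T cells as a bar. Ctla4 is detected in 96.2% to 100% of regulatory cells and Itgae in 26.6% to 50.0%.

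Within the regulatory cells, some genes were detected more often beside Il1rl1 and others were not. Of the 255 thinned cells, 62 had Il1rl1 and no Ccr7 UMI, 29 had Ccr7 and no Il1rl1, 9 had both and 155 had neither. Cells with Il1rl1 numbered 10 of 36, 13 of 38 and 22 of 79 in the p16-DTR-labelled libraries and 6 of 26, 6 of 27 and 14 of 49 in the controls. Klrg1 was detected in 35.2% of the 71 cells with Il1rl1 and 3.8% of the 184 without, Itgae in 59.2% and 22.8%, Il2ra in 63.4% and 32.6%, Ccr2 in 59.2% and 31.0%, Areg in 78.9% and 54.3%, and Gata3, a transcription factor of type 2 and tissue regulatory cells, in 70.4% and 46.2%. Each of these was higher beside Il1rl1 in 6 of 6 libraries. Others did not follow, with Ccr8 in 9.86% and 11.4% and Batf in 35.2% and 34.8% (each higher in 1 library and lower in 5), and Pparg in 5.63% and 5.98%. Itga4 was detected in 60.6% and 85.9%, Tcf7 in 19.7% and 41.3% and the folate receptor Izumo1r in 35.2% and 54.3%, each lower beside Il1rl1 in 6 of 6 libraries. Other genes of the resting list went both ways. Il7r was in 95.8% and 72.3% (higher in 6 of 6), Satb1 in 46.5% and 39.1% and Lef1 in 57.7% and 53.3% (each higher in 5). Slamf6 was in 43.7% and 57.1% (lower in 6 of 6) and Bach2 in 42.3% and 52.7% (lower in 5). These shares pool cells of 6 libraries, the genes were looked up in the same cells and named after their values were seen, and no test was made.

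Other resting genes varied in cells with Ccr7. Of these 38 cells, 63.2% had Bach2, 76.3% the egress receptor S1pr1 and 86.8% Klf2, compared with 47.5%, 54.8% and 70.5% of the 217 others. Il7r went the other way, at 71.1% and 80.2%, and Foxp1, at 73.7% and 74.7%, and the kinase Txk, at 42.1% and 43.8%, were close. The chemokine receptors Cxcr4, at 42.1% and 67.7%, and Ccr2, at 21.1% and 41.9%, were detected less often beside Ccr7. With 3 to 12 cells with Ccr7 per library, these shares are imprecise.

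T cell receptor beta V segments were read from 43 to 87 UMIs per library in regulatory cells. Trbv2 was the most used on average, at 13.7%, 15.6% and 24.1% of Trbv UMIs in the p16-DTR-labelled libraries and 20.9%, 50.0% and 15.7% in the controls. In conventional cells it was at 8.04% to 28.7%. Control 2 stood apart, with 26 of its 52 Trbv UMIs from Trbv2, and p16-DTR 1 had 25.5% of its UMIs from Trbv13-1 and p16-DTR 2 26.7% from Trbv3. These shares count molecules and not cells, so that a few cells rich in receptor RNA can set them.

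Between the groups, the regulatory cells differed in few genes beyond the spread between libraries. On UMI counts summed per library, edgeR's quasi-likelihood test with Benjamini-Hochberg adjustment called 1 of 8766 genes at an adjusted p of 0.05 or less, or 0.0114%, and 603 genes had an unadjusted p under 0.05. The called gene was Cdk14, a cyclin-dependent kinase that acts with cyclin Y at the plasma membrane in Wnt signalling (ENSMUSG00000028926, GRCm38 chromosome 5, 4803391 to 5420312, minus strand). It was at 139, 149 and 148 CPM in the p16-DTR-labelled libraries and at 47.4, 27.0 and 41.8 CPM in the controls. The groups did not overlap, and the log2 fold change was 1.91 (SE 0.20, adjusted p = 0.049). DESeq2 called 30 genes, 20 of them higher in the p16-DTR group.

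With doublet-like cells left out, Cdk14 was at 18.1, 74.3 and 65.6 CPM in the p16-DTR-labelled libraries and at 11.9, 0 and 4.38 CPM in the controls, with a log2 fold change of 3.26 and an adjusted p of 0.42. The same change in conventional CD4 T cells was 0.27 (adjusted p = 0.46), and the difference between the populations did not pass the test (1.64, adjusted p = 0.77). With no filter on low counts this difference passed the same edgeR test (1.66, adjusted p = 0.0037). Between the groups, Cdk14 was called in regulatory cells under 5 of 17 alternatives. Of these, the stricter cell filter removed no member and gave the same fit. Cdk14 was called in no fit that left out p16-DTR 2, p16-DTR 3 or any control library.

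The next 9 genes by unadjusted p were not called by edgeR. DESeq2 called Ccl3, Ccl4, Ramp2, Plvap, Cd36, Hpgd and Muc16 (DESeq2 adjusted p from 4.4e-05 to 0.012), and not Rnase6 or Afdn. Values below are those of edgeR. Ccl3, a chemokine that draws monocytes, was at 16.4, 47.8 and 34.4 CPM against 1.69, 1.69 and 0.929 CPM (log2 fold change 4.53, adjusted p = 0.19), and its neighbour Ccl4 at 33.8, 37.3 and 49.7 CPM against 6.77, 10.1 and 0.929 CPM (2.98, adjusted p = 0.34). Both were higher in each p16-DTR-labelled library than in any control. Without doublet-like cells, Ccl3 was at 1.64, 46.8 and 36.3 CPM against 1.98, 0 and 0 CPM. Ramp2, a partner of the adrenomedullin receptor in endothelium, had a log2 fold change of 2.18, Plvap, a protein of endothelial diaphragms, of 2.59, and Cd36, a fatty acid scavenger receptor of capillary endothelium and macrophages, of 1.95. Their means without doublet-like cells were 7.78 and 9.11 CPM for Ramp2, 1.47 and 3.58 CPM for Plvap and 54.2 and 9.94 CPM for Cd36 in the p16-DTR and control groups. The other genes were the macrophage ribonuclease Rnase6 (1.86), the junction protein Afdn (1.52), the prostaglandin-degrading enzyme Hpgd (1.78) and Muc16, a membrane mucin of mesothelium (-3.46).

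Marker lists of other cell types varied between libraries in these sums, and few of them separated the groups. The 7 endothelial markers together were at 610 to 1016 CPM in the p16-DTR-labelled libraries and 99.5 to 353 CPM in the controls, with 7 of 7 genes higher on average. Without doublet-like cells they were at 129 to 188 CPM and 101 to 118 CPM, with 3 of 7 higher. The 8 macrophage and monocyte markers were at 1176 to 3276 CPM and 239 to 3650 CPM (8 of 8 higher), and at 67.4 to 343 CPM and 39.2 to 127 CPM without doublet-like cells. The 5 neutrophil markers were at 690 to 2189 CPM and 30.6 to 2300 CPM (5 of 5 higher), and then at 30.6 to 51.0 CPM and 20.9 to 55.3 CPM. Of these 3 sums the endothelial one did not overlap between groups, and its part in the gene results was not tested. The 7 mesenchymal markers went the other way, at 80.7 to 559 CPM and 327 to 911 CPM (0 of 7 higher).

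The remaining lists were low or overlapped. The 8 B cell markers were at 358 to 546 and 386 to 507 CPM (6 of 8 higher), of which most was Ighm, and the 8 epithelial markers at 128 to 171 and 119 to 166 CPM (6 of 8). The 6 dendritic cell markers were at 40.4 to 165 and 25.3 to 102 CPM (3 of 6). The 6 natural killer markers were at 10.5 to 39.2 and 13.5 to 50.2 CPM (2 of 6), with Ncr1 and Klra8 at 0. The 5 markers of type 2 innate lymphoid cells were at 2.87 to 25.1 and 6.74 to 22.3 CPM (2 of 5), with Il13 at 0. The 3 CD8 markers were at 5.74 to 21.7 and 0 to 10.2 CPM and the 5 gamma-delta markers at 4.76 to 29.4 and 0 to 3.71 CPM, with Cd8a and Trdc at 0 by the rule and no overlap between groups for the gamma-delta sum. The 4 erythroid and platelet markers were at 0 to 42.3 and 1.69 to 1.86 CPM (2 of 4), with Hbb-bs at 0.

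With doublet-like cells left out, edgeR called 1 of 7352 genes, Fcer1g, the signalling gamma chain of Fc receptors. It was at 31.3, 61.9 and 54.9 CPM in the p16-DTR-labelled libraries and at 1.98, 2.61 and 3.29 CPM in the controls (log2 fold change 4.12, adjusted p = 0.012). Over all members it was at 432, 329 and 183 CPM and at 108, 307 and 26.9 CPM, where the groups overlapped (1.14, adjusted p = 0.78). Fcer1g is abundant in macrophages and neutrophils, and macrophage and monocyte markers in the same 220 cells had means of 185 and 68.8 CPM, whose part in this result was not tested.

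**Figure D4:**
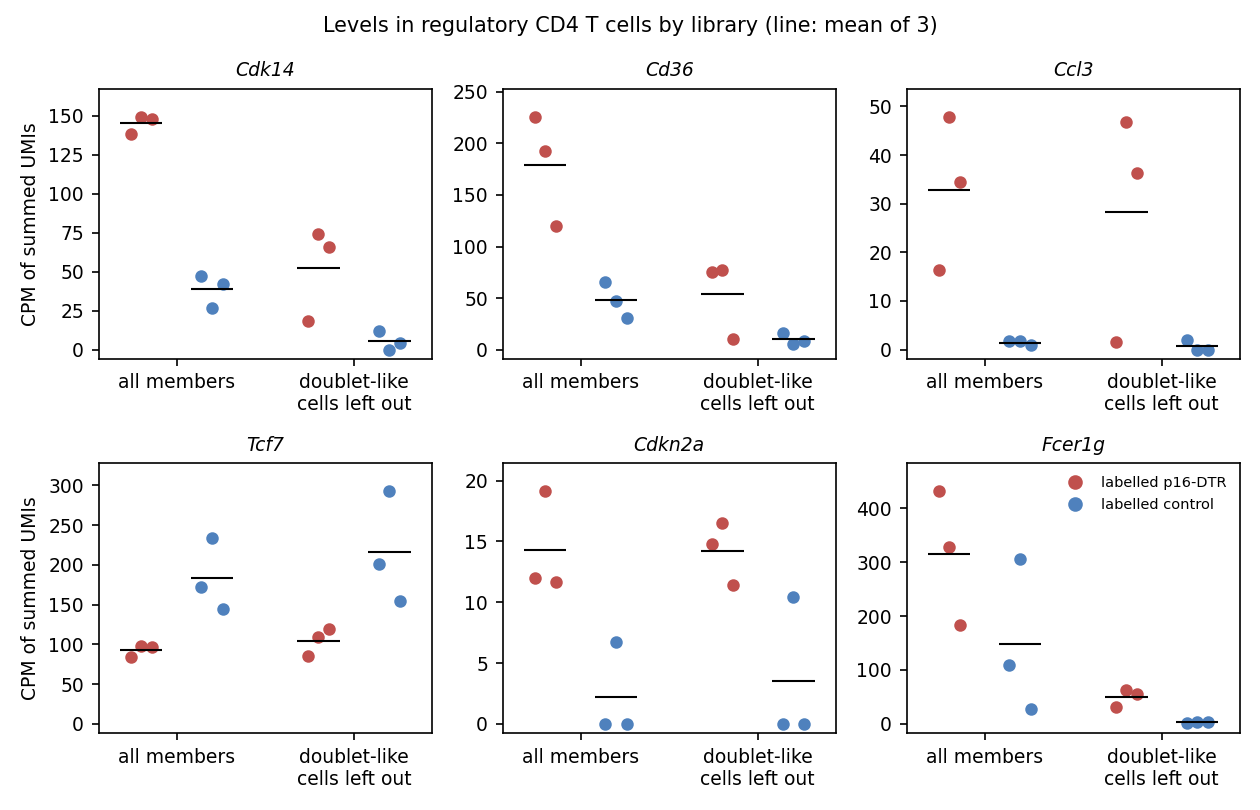
CPM of summed UMIs in regulatory CD4 T cells of each library (points, group means as lines) over all members and with doublet-like cells left out, on a linear axis for each gene. The Cdk14 means are 145 and 38.7 CPM over all members and 52.7 and 5.41 CPM without doublet-like cells, and the 3 Tcf7 values of the p16-DTR group lie below the controls in both sets.

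Foxp3 and Cd4 chose the cells, so their levels between groups are a description. Foxp3 was at 265, 211 and 256 CPM in the p16-DTR-labelled libraries and at 346, 202 and 289 CPM in the controls (log2 fold change -0.18, SE 0.20). Il2ra was at 113, 144 and 138 CPM and at 241, 92.7 and 172 CPM (-0.34, SE 0.29, adjusted p = 0.88), and Cd4 at 206, 192 and 192 CPM and at 173, 196 and 209 CPM (0.04, SE 0.13). The groups overlapped for all 3. Ctla4 was at 1992, 1909 and 1974 CPM and at 3057, 1993 and 2731 CPM, so that the groups met at 1992 and 1993 CPM (-0.39, SE 0.15, adjusted p = 0.65), and they overlapped without doublet-like cells. The 18 identity genes tested include Foxp3 and Cd4. Of the 18, none was called, 7 had a positive and 11 a negative log2 fold change, and the median was -0.06 beside -0.00084 for all genes tested. Without doublet-like cells the median of the list turned to 0.11. The groups did not overlap for 1 of them, where 12.4% of all genes tested had groups that did not overlap.

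None of the 14 resting genes passed the test between groups. Of these, 11 had a negative and 3 a positive log2 fold change, the median was -0.23, and the groups did not overlap for 6, where 12.4% of all genes tested had groups that did not overlap. Tcf7 was at 84.0, 97.6 and 96.9 CPM in the p16-DTR-labelled libraries and at 173, 234 and 145 CPM in the controls (-0.96, SE 0.20, adjusted p = 0.34). All 3 p16-DTR values lay below all 3 controls, as they did without doublet-like cells, where the values were 85.5, 109 and 120 against 202, 293 and 155 CPM. DESeq2 called Tcf7, with an adjusted p of 0.042. In conventional cells its log2 fold change was -0.58 (edgeR adjusted p = 0.10), and the difference between the populations was -0.37 (adjusted p = 0.95). Bach2, a repressor that keeps T cells in a resting state, was at 206, 260 and 240 against 489, 282 and 332 CPM (-0.63, adjusted p = 0.61). Bcl2 went the other way, at 168, 158 and 106 against 66.1, 62.4 and 97.5 CPM (0.91, adjusted p = 0.45).

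None of the 15 proliferation genes was called, although all 15 had a positive log2 fold change, with a median of 0.28 and a range of 0.05 to 0.91. Mki67 was at means of 296 and 291 CPM and Top2a of 287 and 239 CPM. The largest values were those of the ribonucleotide reductase subunit Rrm2 (0.91, adjusted p = 0.70) and of cyclin A2, Ccna2 (0.73, adjusted p = 0.65). The groups did not overlap for 1 of the 15 genes, beside 12.4% of all genes tested. Counts of these genes may come from the same cycling cells and so need not vary independently, which was not tested. The share of cells with a Mki67 UMI after thinning was 23.4% ± 2.06 and 21.0% ± 10.7 (n = 3 each, exact permutation p = 0.8).

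In the IL-2 and STAT5 list, 0 of 14 genes were called, and 10 had a negative log2 fold change (median -0.22). Stat5b, a transcription factor downstream of the IL-2 receptor, was at 482, 438 and 491 CPM in the p16-DTR-labelled libraries and at 615, 592 and 718 CPM in the controls (-0.43, adjusted p = 0.53). The p16-DTR values lay below the controls, and in conventional cells the log2 fold change was -0.34 (adjusted p = 0.17). Stat5a was at 66.5, 78.5 and 65.1 against 88.1, 94.4 and 150 CPM (-0.67, adjusted p = 0.59).

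The other lists held no call either. Of 18 tissue and effector genes, 14 had a negative log2 fold change (median -0.15), among them the triglyceride enzyme Dgat1 (-0.66, adjusted p = 0.58) and the nuclear receptor Rora (-0.52, adjusted p = 0.63). Of 16 suppressive genes, 9 were negative (median -0.12, and 0.05 without doublet-like cells), and Havcr2 (TIM-3), at 48.0, 67.9 and 108 against 59.3, 16.9 and 10.2 CPM, had a log2 fold change of 1.5 (adjusted p = 0.65). Of 9 type 17 genes, 6 were negative (median -0.04). Ccr6, the receptor for CCL20 that type 17 cells share, was at 44.7, 34.4 and 35.5 against 54.2, 62.4 and 55.7 CPM in regulatory cells (-0.58, adjusted p = 0.63). With no filter on low counts, its change in regulatory minus that in conventional cells was 1.98 (edgeR adjusted p = 0.042). The change in conventional cells was thus the more negative in that fit, while no gene passed this test with the filter. Of 23 homing genes, 14 were negative (median -0.07). Of 17 early activation genes, 10 were negative (median -0.09), and of 13 dissociation stress genes, 6 were (median 0.02). Of 16 interferon response genes, 12 were positive (median 0.16), and of 8 exhaustion and ageing genes, 5 were (median 0.20). Without doublet-like cells the medians were -0.05 for tissue and effector, -0.11 for type 17, -0.03 for homing and -0.10 for early activation genes. They were 0.29 for dissociation stress, 0.26 for interferon response and 0.26 for exhaustion and ageing genes.

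For the shares of regulatory cells with a UMI of the state genes after thinning, the groups overlapped for all but Itgae. With 3 against 3 libraries the exact permutation p cannot go below 0.1, so no gene could pass after adjustment over 19 genes, and the p-values below say nothing on whether the groups differ. Itgae was detected after thinning in 27.8%, 28.9% and 26.6% of regulatory cells in the p16-DTR-labelled libraries and in 50.0%, 33.3% and 40.8% in the controls. The means were 27.8% ± 1.18 and 41.4% ± 8.35 (n = 3 each, exact permutation p = 0.1, adjusted p = 0.95). In unthinned cells the groups overlapped, at 48.6%, 42.1% and 48.1% against 70.4%, 48.1% and 57.1% (exact permutation p = 0.2), as did the CPM of Itgae. Il1rl1 was detected in 29.9% ± 3.69 and 24.6% ± 3.45 and Areg in 61.3% ± 1.84 and 61.5% ± 12.6 (exact permutation p = 0.3 and 0.9). The groups did not overlap for Itgae in conventional cells either. There it was detected after thinning in 1.37% ± 1.14 and 3.36% ± 0.891 in the p16-DTR and control groups (n = 3 each, exact permutation p = 0.1).

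Cdkn2a encodes p16, whose promoter drives the recombinase. UMIs were counted per gene and do not tell which transcript or promoter of Cdkn2a they came from. Cdkn2a went against the label: it was higher in the p16-DTR-labelled libraries, where cells with an active p16 promoter were to be removed. Regulatory cells had 11, 20 and 22 Cdkn2a UMIs there, or 12, 19.1 and 11.6 CPM, and 0, 4 and 0 UMIs in the controls, or 0, 6.74 and 0 CPM. The groups did not overlap, and the log2 fold change was 2.88 (SE 0.89) with an adjusted p of 0.59 by edgeR. It ran from 2.02 to 3.11 over the alternatives that kept control 2, and was 6.98 without control 2, where every control count was 0 and the fitted value is no bound (edgeR adjusted p = 0.17). Without doublet-like cells it was at 14.8, 16.5 and 11.4 CPM and at 0, 10.5 and 0 CPM. The log2 fold change in conventional cells was 1.98 (adjusted p = 0.11), and the difference between the populations was 1.02 (adjusted p = 0.97).

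By cells, a Cdkn2a UMI was found in 24.3%, 28.9% and 15.2% of regulatory cells in the p16-DTR-labelled libraries, or 32 of 154 cells. In the controls it was found in 0 of 27 cells, 7.41% and 0 of 49 cells. For the libraries at 0, a floor of 3 counts is 11.1% and 6.12%, and the wider 95% Wilson upper limit is 12.5% and 7.27%. These bound the counting error of a 0, and smaller shares can be detected. The means were 22.8% ± 7.0 and 2.47% ± 4.28 (n = 3 each, exact permutation p = 0.1). After thinning they were 4.42% ± 1.57 and 1.23% ± 2.14, and the groups overlapped (exact permutation p = 0.2). Other lymphocytes were counted in the same way, first without thinning. Conventional CD4 T cells had 17.2% to 23.0% and 3.33% to 7.11% in the p16-DTR and control groups. CD8 T cells had 21.2% to 24.1% and 1.30% to 3.92%, and B cells 13.7% to 15.7% and 0.524% to 1.32%. In CD4 T cells with Il17a or Il17f UMIs the groups overlapped, at 10.0%, 0% and 15.4% of 20, 3 and 13 cells against 5.33%, 8.26% and 8.08% (exact permutation p = 0.8). After thinning, the means were 7.51% and 2.10% in conventional cells, 8.11% and 1.54% in CD8 T cells and 4.95% and 0.314% in B cells. In each of these populations the thinned groups did not overlap, and in CD4 T cells with Il17a or Il17f UMIs they did. A tdTomato entry of the matrices, whose purpose the labels do not give, had 1 UMI in the regulatory cells, in p16-DTR 1. It was found in 10 conventional CD4 T cells, 2 CD4 T cells with Il17a or Il17f, 7 CD8 T cells and 44 B cells of the p16-DTR-labelled libraries and in 0 cells of these kinds in the controls. The directions given between the groups rest on the labels, and Cdkn2a was higher in the libraries whose label names its ablation allele.

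Cdkn1a (p21), another inhibitor of cyclin-dependent kinases, was at 178, 103 and 88.9 CPM in the p16-DTR-labelled libraries and at 61.0, 157 and 112 CPM in the controls (log2 fold change 0.16, adjusted p = 0.96). The groups overlapped in CPM. By cells, a Cdkn1a UMI was found in 37.8%, 44.7% and 41.8% and in 37.0%, 33.3% and 28.6%, where the groups did not overlap (means 41.4% ± 3.46 and 33.0% ± 4.24, n = 3 each, exact permutation p = 0.1), while after thinning they did, at 21.3% ± 6.06 and 21.0% ± 7.83 (exact permutation p = 1.0). Of the 15 arrest and p53 genes tested, none was called, 10 had a negative log2 fold change, and the median was -0.04.

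**Figure D5:**
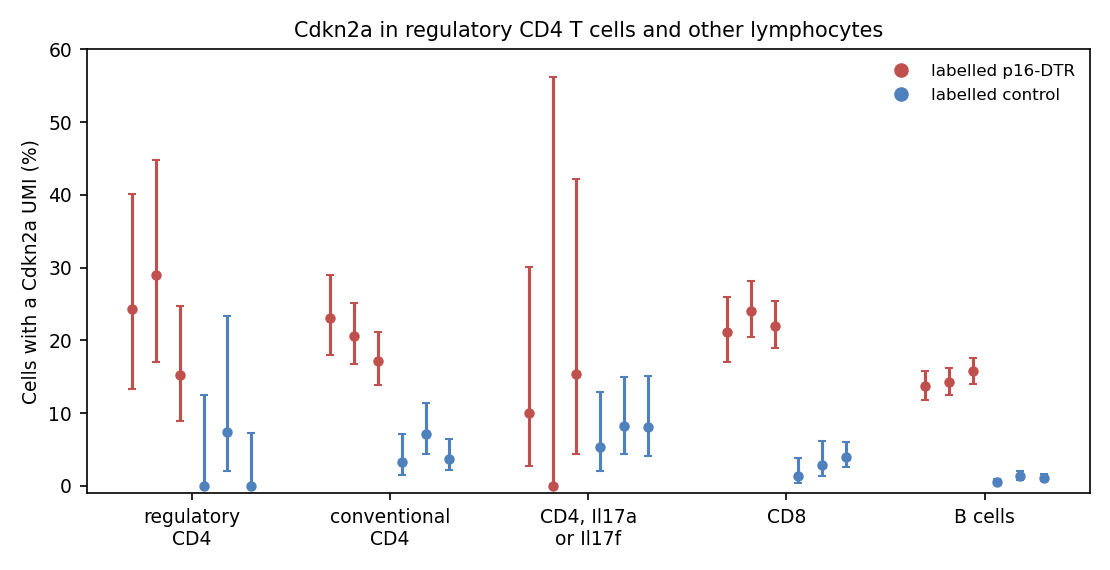
Percentage of cells with a Cdkn2a UMI, not thinned, in 5 lymphocyte populations of each library (points with 95% Wilson intervals). In regulatory cells the p16-DTR-labelled libraries lie at 15.2% to 28.9% and the controls at 0% to 7.41%.

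No gene passed the edgeR test of a different change in regulatory and conventional CD4 T cells between the groups (0 of 11893 genes, or 0.0%, with 601 at an unadjusted p under 0.05), while 24 passed with no filter on low counts. In conventional cells 1 of 12523 genes was called, or 0.00799%, and it was Atp8a2 (log2 fold change 1.90, adjusted p = 0.036). DESeq2 called 312 genes there, and edgeR without doublet-like cells called 186 of 11094, 80 higher and 106 lower. The conventional sums held 3502903 to 7495727 UMIs per library, against 590408 to 1889490 for regulatory cells. Counts of calls in regulatory and conventional cells are therefore not measured at like depth. With doublet-like cells left out of both populations, 4 genes passed the test of the difference. For Gzmb (granzyme B) the difference was -3.76, which also takes in its change in conventional cells, whose values are not given here. In regulatory cells Gzmb was at 23.0, 20.6 and 20.7 CPM in the p16-DTR-labelled libraries and at 31.6, 20.9 and 72.4 CPM in the controls. These groups overlapped. The other 3 were Fcer1g (5.31, adjusted p = 0.040), the complement subunit C1qb (adjusted p = 0.040) and Adam23 (adjusted p = 0.048), and all 4 were named after their values were seen.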

How the data were processed

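Single-cell RNA was measured in 3 libraries labelled p16-DTR and 3 labelled control. The authors deposited unnormalised UMI counts per gene and barcode, with a matrix for each library with 31054 features, per the file headers. Cell Ranger 8.0.1 and the mm10 build are named in the submitters' processing notes. The annotation release and whether counting used strand are not given in the sources used here. Gene positions come from GENCODE M21 on GRCm38.

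Cells were retained at 500 genes, 1000 UMIs and at most 15% mitochondrial UMIs. Doublets were predicted per library from neighbours of simulated doublets (2 per cell, 2000 variable genes, 30 principal components, 30 neighbours, 0.4% of cells per 1000 barcodes) and kept except where stated. UMIs were summed per library and population and tested with edgeR 4.0.16 in R 4.3.3 (filterByExpr, TMM, quasi-likelihood, Benjamini-Hochberg threshold 0.05), with group alone, and with library as a block for the difference between populations. DESeq2 1.42.0 was an alternative. Scripts were tested on simulated data. Shares were compared with exact two-sided permutation tests, with 95% Wilson intervals and a floor of 3 counts for a share of 0, which cover counting error only. Other tools were scikit-learn 1.9.0, scipy 1.17.1, numpy 2.4.6, matplotlib 3.10.9 and pandas 2.3.3 under Python 3.11.15.

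The members, lists and tests were chosen with earlier results of these data known. Genes were picked by rule. Foxp3, Ctla4, Il2ra, Cd4, Cdkn2a, Cdkn1a and tdTomato were always included. Between groups the rule took called genes and the lowest unadjusted p up to 10 genes. Against conventional cells it took 15 genes per direction (at 20 CPM or more, same sign in 6 of 6 libraries). It took up to 5 per direction for the difference between populations, 4 per list by level, and 3 V segments. Several of the genes picked by level in a list, and a V segment, are not named above. Results for 2 of the 19 state genes are not reported here. Other genes and segments named were chosen after their values were seen. Alternatives were the scaling, the test, the filter, a replicate block, each library left out, the member rule, the cell filter, doublets, thinning and the pseudocount.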

Additional observations from a re-analysis of the deposited data

How the results depend on the processing

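The count of genes called between groups in regulatory cells, 1 in the test reported, was 0 with RLE size factors, 0 with library size alone, 30 with DESeq2, 123 with no filter on low counts, 0 with Foxp3 of at least 2 UMIs, 0 with Cd4 not required and 49, all higher in the p16-DTR group, without predicted doublets. Leaving out each library in turn gave 0 to 11, with 11 without p16-DTR 1 and 0 without each of the other 5. In conventional cells, where 1 gene was called, DESeq2 called 312, each library left out gave 0, and leaving out predicted doublets and cells high in other-cell markers gave 186. For the difference between the populations, 0 became 24 with no filter and 4 without predicted doublets and cells high in other-cell markers. The cause of these differences was not tested.

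The replicate numbers gave no clear pairing of the samples. The correlation of deviations between same-numbered libraries was 0.05, 0.13 and 0.07, and between the others it ran from -0.17 to 0.11. The library p16-DTR 3 correlated better with control 1 (0.11) than with its own number. These values are too few and too small to decide whether the numbers pair the samples. With the replicate block, 1 gene was called in regulatory cells, Cd36 (log2 fold change 1.93, edgeR adjusted p = 0.034) in place of Cdk14, and 0 in conventional cells. Pairing by number gave the share among CD4 T cells an exact permutation p of 0.25, the smallest it allows, and the share among Ptprc-detected cells one of 0.5.

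The difference in share among CD4 T cells kept its direction under every alternative run, at 1.97 to 4.92 percentage points with each library left out. It was 0.540 with Il17a and Il17f cells out of the denominator, an alternative added after seeing the data. The share among Ptprc-detected cells differed by 0.134 points, and by -0.0388 to 0.233 with each library left out, the negative value being without p16-DTR 3. Without thinning, the differences for Il10 (2.41 points) and Pdcd1 (4.13) changed sign. So did the log2 fold changes of Foxp3 (0.0089) and Cd4 (-0.017) without control 1, and of Cdkn1a without p16-DTR 1 (-0.18) and without control 1 (-0.11). With each library left out these ran from -0.37 to 0.0089 for Foxp3, -0.017 to 0.093 for Cd4 and -0.18 to 0.46 for Cdkn1a. Leaving out members with 2 or more genes of another cell type's list was planned and not run, since it would have removed most members. A limit of 0.5% of UMIs, chosen after seeing the data, took its place. With 27 to 79 cells per library, genes of few UMIs were not measured precisely.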
